A study of Mus musculus with 6 samples.

Results

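The nuclear genes for the proteins of the mitochondrial ribosome were followed in CD4+ T cells from the livers of mice with concanavalin A hepatitis, with and without simvastatin. They were taken as the rows whose symbol starts with Mrpl or Mrps and a digit, leaving out names with a numbered suffix or a pseudogene ending, and numbered 78 of 23505 gene rows, 49 named Mrpl and 29 named Mrps. Concanavalin A (ConA) is a lectin used to trigger T cells and so an immune-mediated hepatitis, and simvastatin is a statin that inhibits HMG-CoA reductase in the mevalonate pathway. All mice were wild type and all received ConA. The ConA group was gavaged with phosphate-buffered saline and the ConA+SIM group with simvastatin at 30 mg/kg, daily over 5 days ahead of ConA, at 1 h before the injection and at 24 h after it. Cells positive for CD3 and CD4 and negative for CD8 and NK1.1 were sorted by flow cytometry, and each group held 3 samples of 1 RNA sequencing library each. Strain, age and number of animals per sample were not given in the sources used here. Hence p-values rest on the spread among these samples, and that spread may be technical.

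The mitochondrial ribosome, or mitoribosome, translates the few messenger RNAs encoded by mitochondrial DNA, all of which specify subunits of the respiratory chain and ATP synthase. Its RNAs are mitochondrial, but its proteins are encoded in the nucleus, made in the cytosol and imported. Some have a counterpart in bacterial ribosomes and others occur only in mitochondria. T cells enlarge their mitochondria upon activation. Among the 78 genes, 51 encode large-subunit and 26 small-subunit proteins, and 46 have a bacterial counterpart whereas 31 are mitochondria-specific. The symbol does not always name the subunit: the products of Mrps30 and Mrps18a sit in the large subunit. Mrps36 was counted in neither class, since its product is known as a subunit of the 2-oxoglutarate dehydrogenase complex.

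The promoters of 4 genes are shown because these had the smallest p-values of the family in the comparison below. The sequences are from RefSeq (GRCm38.p6), 5′ to 3′ on the gene's strand, from 130 bases before the annotated start to 20 bases from it onward. Capitals mark an 8-letter NRF1 core (GCGCATGC or its reverse complement GCATGCGC) or an ETS site as bound by GABPA (CCGGAAGT or ACTTCCGG). NRF1 and GABPA are transcription factors known for genes of mitochondrial proteins. Where both orientations of the palindrome-like NRF1 core overlap, the run of capitals is longer.
Mrpl33, chr5:31613821-31613970, plus strand: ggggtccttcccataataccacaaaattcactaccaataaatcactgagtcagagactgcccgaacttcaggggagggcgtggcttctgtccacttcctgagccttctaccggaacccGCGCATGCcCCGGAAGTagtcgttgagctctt
Mrpl32, chr13:14613018-14613167, minus strand: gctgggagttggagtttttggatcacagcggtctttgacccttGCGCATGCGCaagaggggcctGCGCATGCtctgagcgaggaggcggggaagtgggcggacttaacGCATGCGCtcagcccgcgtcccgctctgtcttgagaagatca
Mrpl39, chr16:84735225-84735374, minus strand: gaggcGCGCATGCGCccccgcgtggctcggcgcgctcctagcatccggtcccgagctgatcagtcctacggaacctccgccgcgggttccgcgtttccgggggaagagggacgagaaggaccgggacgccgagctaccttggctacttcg
Mrpl12, chr11:120484507-120484656, plus strand: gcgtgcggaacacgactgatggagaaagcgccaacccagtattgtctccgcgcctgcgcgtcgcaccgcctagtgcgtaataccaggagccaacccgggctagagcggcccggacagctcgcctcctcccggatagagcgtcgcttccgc

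In the Mrpl33 promoter the NRF1 core began 12 bases and the ETS site 3 bases before the start. Mrpl32 held NRF1 cores that began 87, 66 and 22 bases before the start, and Mrpl39 held one 125 bases before it. Neither set of letters was found in the stretch shown for Mrpl12. A further motif, the YY1 site (AAGATGGC or GCCATCTT), lay 242 bases before the start of Mrpl32, outside the stretch shown. These motifs were chosen after the Mrpl33 promoter had been read.

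Promoters of 250 bases before to 50 after the start were found for 69 of the 78 genes. An NRF1 core occurred on either strand in 8 of the 69 (11.6%), against 3.05% of all 27025 promoters in the RefSeq table and 6.42% of the 8285 that belonged to genes tested here. The 8 genes were Mrpl9, Mrpl10, Mrpl17, Mrpl22, Mrpl32, Mrpl33, Mrpl39 and Mrps18b. The ETS site occurred in 12 of 69 promoters (17.4%; 4.31% of all and 10.1% of tested genes) and the YY1 site in 12 (17.4%; 3.19% and 5.78%). At least 1 of the 3 motifs was present in 29 promoters (42.0%), against 9.91% of all promoters and 20.6% of those of tested genes. A match describes these letters and does not show that a factor binds.

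Many of these genes start back to back with another gene. A gene on the opposite strand began within 1000 bp of the start, with an overlap of up to 50 bp allowed, for 27 of the 69 genes (39.1%), against 12.8% of all genes and 20.7% of tested genes. Mrpl46 and Mrps11 form such a pair with each other, 42 bp apart. Mrps12 lies opposite Sars2, the mitochondrial seryl-tRNA synthetase gene, and Mrpl43 opposite Twnk, the mitochondrial DNA helicase gene. Whether strand was used in counting was not given in the sources used here, and reads from overlapping neighbours cannot be told apart.

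Total counts per library ran from 17549429 to 25031862. Of the 78 genes, 75 had enough counts to be tested, within 10509 tested genes in all. ConA+SIM replicate 2 stood apart: 18.4% of tested genes had 0 counts in it, where the other 5 libraries had 2.76% to 9.98%. The sorted cells carried the T cell markers they should: all 7 CD4 T cell markers found in the table had counts in every library, and their summed level was 2240 to 3490 CPM in ConA and 3050 to 3230 CPM in ConA+SIM. A gene's CPM is its count per 1000000 counts of the library's total after TMM scaling. Of markers that the sort should remove, Cd8a and Cd8b1 together reached 4.72 to 54.1 CPM. Klrb1c, the gene for the NK1.1 antigen, was measured at 6.69, 17.6 and 20 CPM in ConA replicates 1 to 3 and at 43.5, 43.5 and 39.0 CPM in ConA+SIM. Of the other 6 NK cell markers, Tyrobp (28.5 to 286 CPM) and Klre1 (4.55 to 58.1 CPM) had counts in every library, Eomes and Klra4 in some, and Ncr1 and Klra8 in none.

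Setting ConA+SIM against ConA addresses what simvastatin changed in these cells. Mrpl33 was the only 1 of the 75 tested genes to rise, 0 fell, and 74 did not pass (edgeR quasi-likelihood test, Benjamini-Hochberg adjusted p under 0.05 over all tested genes). Among all tested genes 0.542% rose and 0% fell. At an unadjusted p under 0.05, 4 of the 75 were higher (Mrpl33, Mrpl32, Mrpl39 and Mrpl12) and 0 lower, against 5.31% and 3.54% of all tested genes. DESeq2 called Mrpl32 and Mrpl33 higher and 0 lower, against 3.35% of the genes it tested called higher and 1.86% lower. The log2 fold change was above 0 in 51 of 75 genes (68%; 48.0% of all tested genes), with a median of 0.35 and quartiles of -0.32 and 0.70. The median over all tested genes was -0.041. With offsets for transcript length and GC content, described further on, the median of the family was -0.023 and that of all tested genes -0.01.

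Mrpl33 encodes a small large-subunit protein with a bacterial counterpart (chromosome 5, 31613951 to 31622644, GRCm38). It was measured at 76.3, 50.6 and 75.5 CPM in ConA replicates 1 to 3 and at 233, 258 and 182 CPM in ConA+SIM replicates 1 to 3. All 3 simvastatin libraries lay far above all 3 controls. The means were 67.4 ± 14.6 and 224 ± 38.6 CPM (SD, n = 3 per group), and the log2 fold change was 1.73 ± 0.30 (SE, edgeR adjusted p = 0.0485). The call ended without any 1 of the 6 libraries, at 1.55 to 1.86 with edgeR adjusted p from 0.129 to 0.271. It also ended with offsets for transcript length (0.98, adjusted p = 0.519) or length and GC content (0.79, adjusted p = 0.998), and with cytosolic ribosomal protein genes left out (1.73, adjusted p = 0.146). In these settings 0% of all tested genes were called higher, apart from 0.0274% without ConA+SIM replicate 3.

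Mrpl32 encodes the large-subunit protein whose cleavage by the m-AAA protease is known to precede mitoribosome assembly (chromosome 13, 14610301 to 14613037). Its level was 29.9, 23.5 and 27.4 CPM in ConA and 92.3, 88.1 and 65.5 CPM in ConA+SIM. The controls lay close together and every simvastatin library lay above them. The log2 fold change of 1.61 ± 0.43 did not pass with edgeR (adjusted p = 0.246) and passed with DESeq2 (adjusted p = 0.00904). The GENCODE transcript taken for its length has 3013 nt, which is more than the span of the RefSeq coordinates above. With that length, which is uncertain, the log2 fold change was 1.72 with length offsets and 1.25 with length and GC offsets. The protease subunit genes Afg3l2 and Spg7, named here for this link after their values were seen, had log2 fold changes of -0.33 ± 0.48 and -0.61 ± 0.39.

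Mrpl12 encodes the stalk protein that recruits translation factors to the large subunit (chromosome 11, 120484637 to 120488754). It stood at 110, 25.1 and 52.1 CPM in ConA and at 132, 148 and 148 CPM in ConA+SIM. The simvastatin libraries were nearly level, whereas ConA replicate 1 came close to them and the other controls did not. The log2 fold change was 1.19 ± 0.50 (edgeR adjusted p = 0.528). It was 1.87 without ConA replicate 1. Mrpl10, which anchors that stalk, was the most even gene of the family, at 54.7, 54.4 and 45.3 CPM in ConA and 42.1, 52.7 and 41.2 CPM in ConA+SIM (-0.18 ± 0.45). Mrpl11, at the base of the stalk, ranged from 0 to 48.0 CPM within ConA and from 6.94 to 27.9 CPM within ConA+SIM. The stalk genes therefore differed in their spread, and the groups overlapped for Mrpl10 and Mrpl11.

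Mrpl39 encodes a mitochondria-specific large-subunit protein (chromosome 16, 84718281 to 84735244). It was at 34.3, 6.24 and 39.5 CPM in ConA and at 86.4, 123 and 47.0 CPM in ConA+SIM. The groups did not overlap, but the highest control and the lowest simvastatin library were close, and the log2 fold change of 1.68 ± 0.70 did not pass (edgeR adjusted p = 0.522). Mrps18c encodes the small-subunit homolog of bacterial S18. It was measured at 16.1, 26.4 and 68.4 CPM in ConA and at 99.5, 72.4 and 85.7 CPM in ConA+SIM (1.22 ± 0.57). Here too the ranges were separate by a narrow gap. The value of Mrps18c was 0.55 with length offsets, 0.33 with length and GC offsets and 0.84 to 2.04 without 1 library, the highest without ConA replicate 3. Of its paralogs, Mrps18a had 0 counts in ConA replicate 1 and ConA+SIM replicate 2 and at most 16.4 CPM elsewhere, and Mrps18b at most 3.46 CPM in any library.

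**Figure D1:**
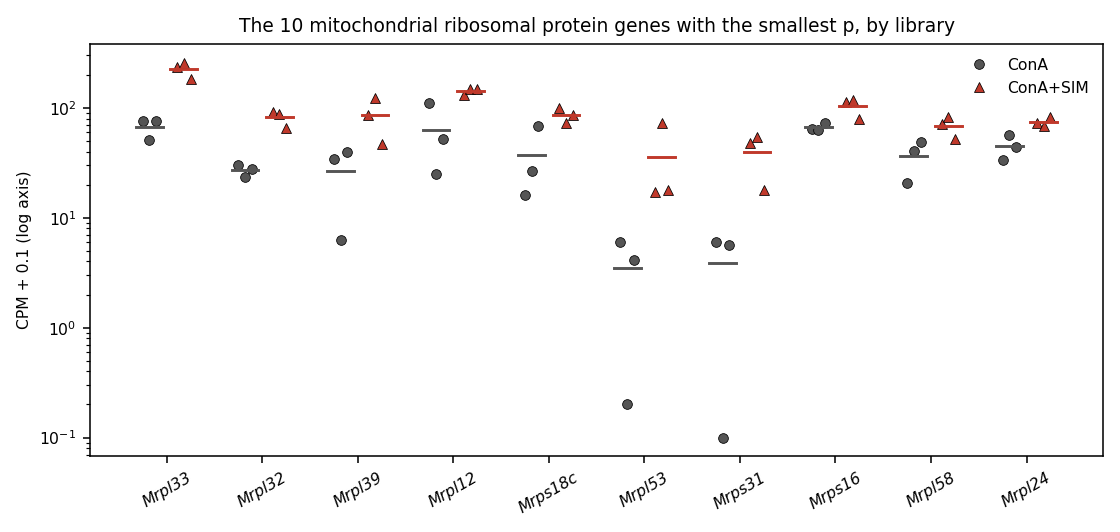
Level of the 10 mitochondrial ribosomal protein genes with the smallest p in each library, as CPM + 0.1 on a log axis, with circles for ConA, triangles for ConA+SIM and bars for group means. All 3 ConA+SIM points lie above all 3 ConA points for each of the 10 genes, and Mrpl33 alone passed the test (67.4 ± 14.6 and 224 ± 38.6 CPM). The genes were picked by p in this same comparison, which favours such separation. It held in 21.3% of the tested family and 9.18% of all tested genes.

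The largest log2 fold changes belonged to Mrpl53 and Mrps31, both at or near 0 in ConA replicate 2. Mrpl53, mitochondria-specific in the large subunit, stood at 5.96, 0.101 and 4.01 CPM in ConA and at 17.2, 72.3 and 17.7 CPM in ConA+SIM (3.41 ± 1.60, edgeR adjusted p = 0.605). Mrps31, mitochondria-specific in the small subunit, stood at 5.87, 0 and 5.55 CPM in ConA and at 47.6, 53.7 and 17.9 CPM in ConA+SIM (3.38 ± 1.71, adjusted p = 0.662). Mrpl40 was at 7.08, 11.6 and 6.77 CPM in ConA and at 36.5, 12.5 and 32.9 CPM in ConA+SIM (1.69 ± 1.25). In all 3 genes the groups were separate but the values within ConA+SIM were far apart, and the standard errors were large.

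Smaller differences with less spread were seen in several proteins with a bacterial counterpart. Mrps16 was at 64.0, 62.9 and 72.0 CPM in ConA and at 113, 117 and 79.6 CPM in ConA+SIM (0.64 ± 0.34). Mrpl24 was at 33.3, 56.0 and 44.1 CPM in ConA and at 72.1, 67.7 and 83.2 CPM in ConA+SIM (0.74 ± 0.41). Mrpl30 was at 75, 98.8 and 97.6 CPM in ConA and at 123, 117 and 155 CPM in ConA+SIM (0.54 ± 0.30). The groups did not overlap in these genes, and none passed with edgeR (adjusted p from 0.699 to 0.732). The value of Mrpl30 was 0.081 with length offsets and turned to -0.039 with length and GC offsets, and that of Mrpl24 was 0.45 and 0.36. Mrpl58, a mitochondria-specific member known as a peptidyl-tRNA hydrolase that acts on stalled ribosomes, was at 20.8, 40 and 49.2 CPM in ConA and at 70.6, 82.2 and 51.8 CPM in ConA+SIM (0.90 ± 0.49). Its highest control lay just under its lowest simvastatin library.

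In all, every ConA+SIM value exceeded every ConA value in 16 of the 75 genes (21.3%), against 9.18% of all tested genes. Beside the 11 named above (Mrpl33, Mrpl32, Mrpl12, Mrpl39, Mrps18c, Mrpl53, Mrps31, Mrpl40, Mrps16, Mrpl24 and Mrpl58) and Mrpl30, they were Mrpl9, Mrpl14, Mrpl18 and Mrps24. The reverse held in 3 genes (4%), against 8.57% of all tested genes. The 3 were Mrpl55, Mrps7 and Mrps27.

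Those 3 lower genes each had 1 simvastatin library at or near 0. Mrpl55 encodes the mitochondrial counterpart of bacterial L31 and was at 48.5, 18.9 and 24.7 CPM in ConA and at 14.8, 0 and 10.2 CPM in ConA+SIM (-1.88 ± 1.76, edgeR adjusted p = 0.997). Mrps7, whose product binds the small ribosomal RNA, was at 72.7, 31.2 and 61.5 CPM in ConA and at 25.1, 0.0583 and 29.7 CPM in ConA+SIM (-1.59 ± 1.34). Mrps27, a pentatricopeptide repeat protein gene, was at 16.6, 22.6 and 20.6 CPM in ConA and at 4.06, 0 and 16.1 CPM in ConA+SIM (-1.57 ± 2.1). In each of the 3 the value at or near 0 was that of ConA+SIM replicate 2. Mrpl28 (-1.39 ± 1.16) and Mrps36 (-1.39 ± 2.52) were the other two of the lowest 5, and their groups overlapped.

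**Figure D2:**
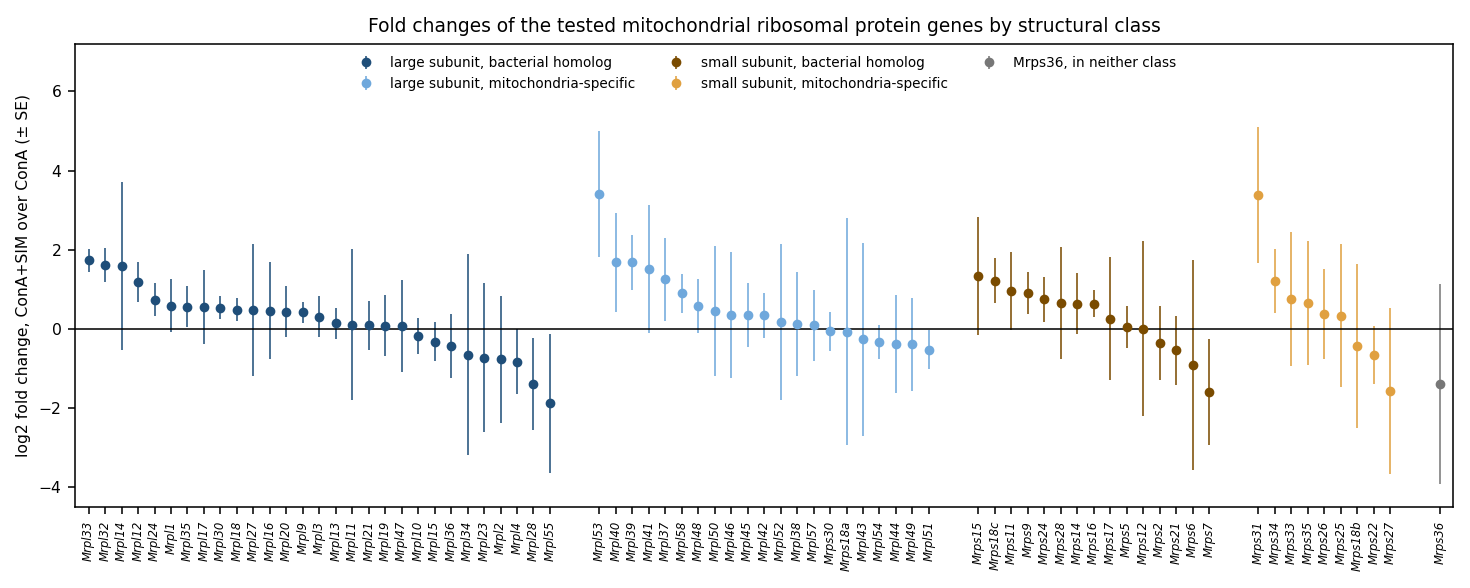
Log2 fold change of ConA+SIM over ConA for the 75 tested genes, grouped by subunit and by whether a bacterial counterpart exists, with bars for the standard error. Without length and GC offsets, most points lie above 0 in each of the 4 classes, and the standard errors run from 0.27 to 2.86.

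The medians of the structural classes lay close together. The median log2 fold change was 0.33 over 50 large-subunit genes, 34 of them above 0, and 0.51 over 24 small-subunit genes, 17 of them above 0. It was 0.36 over 44 genes with a bacterial counterpart, of which 31 were above 0, and 0.35 over 30 mitochondria-specific genes, of which 20 were above 0. Mrpl33 was the only gene called. The calls were thus 0 of 24 small-subunit and 0 of 30 mitochondria-specific genes, where 0.542% of all tested genes were called higher. A difference between the classes was not tested.

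Fold changes of genes with and without each promoter motif were set side by side. The median log2 fold change was 0.56 over the 7 tested genes with an NRF1 core and 0.35 over the 59 without. The 7 ran from -0.44 (Mrps18b) to 1.73 (Mrpl33). Mrpl33, whose promoter had been read before the motifs were chosen, is among the genes with an NRF1 core and with an ETS site. A difference by motif was therefore not tested. For the ETS site it was 0.34 with and 0.36 without, and for the YY1 site 0.18 with and 0.37 without. Of the 23 genes whose back-to-back neighbour was also tested, 12 had a fold change of the same sign as that neighbour, Mrpl46 and Mrps11 being counted for each other. None of the neighbours was called, where 0.542% of all tested genes were called higher and 0% lower. Mrpl32 stood at 1.61 on the log2 fold change scale and its neighbour Psma2, a proteasome subunit gene, at 0.61.

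The spread of the family between libraries was wide, and many genes had few or no counts in a library. Of the 75 tested genes, 26 had at most 10 counts in at least 1 library. All 26 did so in ConA replicate 2 (15 genes) or ConA+SIM replicate 2 (18 genes), 7 of them in both. These shares were 20% and 24% of the family, against 11.3% and 21.1% of all tested genes in the same libraries. In the other 4 libraries 0 to 3 of the 75 genes were that low. In ConA replicate 1 this was 4% of the family, against 12% of all tested genes. In ConA replicate 3 and ConA+SIM replicates 1 and 3 it was 0% to 1.33%, against 3.68% to 7.09%. Apart from Mrps18b, the 26 genes reached 325 to 1684 counts in their highest library. A gene at 0 counts may still have stood at up to 0.118 to 0.175 CPM, the level of 3 counts (95% confidence, counting error only). The replicate numbers link no samples across groups in the labels.

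**Figure D3:**
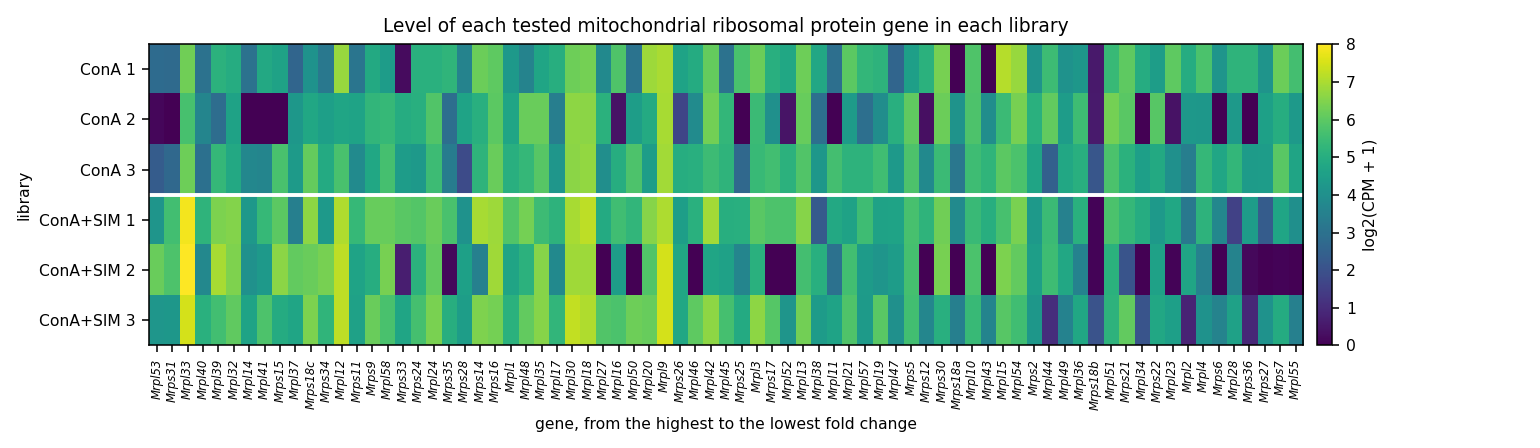
Level of each of the 75 tested genes in each library as log2(CPM + 1), with genes ordered by fold change and a white line between the groups. Dark cells, which mark genes at or near 0, cluster in ConA replicate 2 (15 genes with at most 10 counts) and ConA+SIM replicate 2 (18 genes).

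Genes that stayed above 10 counts in every library gave a similar picture. They numbered 49, with a median ratio of highest to lowest CPM of 4.15, and 35 of them had a log2 fold change above 0, with a median of 0.38. The standard error exceeded 1 for 36 of the 75 genes. The median standard error of the family was 0.941, against 0.757 over all tested genes and 0.188 over the cytosolic ribosomal protein genes. Without ConA replicate 2 the median log2 fold change of the family was 0.19 and without ConA+SIM replicate 2 it was 0.53. Several genes had no stable direction: Mrps12, for the decoding-centre protein of the small subunit, stood at 34.0, 0.252 and 13.1 CPM in ConA and at 35.8, 0 and 11.9 CPM in ConA+SIM (0.012 ± 2.20).

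The other named genes had values as follows. Mrps34, a small-subunit gene, was at 8.16 to 28.8 CPM in ConA and 18.6 to 81.3 CPM in ConA+SIM (1.21 ± 0.81). Mrpl36, for a late-joining large-subunit protein, was at 18.1 to 44.8 CPM and 10.8 to 33.1 CPM (-0.43 ± 0.81). Mrpl45, whose product lies at the exit tunnel and ties the ribosome to the inner membrane, was at 7.21 to 38.5 CPM and 22.9 to 49.7 CPM (0.35 ± 0.81). The groups overlapped in all 3, and none of them passed.

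Mrpl44, which carries a ribonuclease III-like fold, was lowest in replicate 3 of each group: 44.3, 67.4 and 4.52 CPM in ConA and 43.3, 45.5 and 1.07 CPM in ConA+SIM (-0.37 ± 1.24). Mrps30 was at 82.0, 73.1 and 43.6 CPM in ConA and 76.8, 82.1 and 32.0 CPM in ConA+SIM (-0.057 ± 0.49). In both genes the groups overlapped over most of their range.

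Summed over the 78 genes, the family reached 2857, 2300 and 2620 CPM in ConA and 3819, 3014 and 3549 CPM in ConA+SIM. The sums did not overlap, at 2592 ± 280 and 3461 ± 410 CPM (SD, n = 3 per group), and replicate 2 was the lowest of its group both times. Without Mrpl33 they were 2780, 2250 and 2545 CPM in ConA and 3586, 2756 and 3367 CPM in ConA+SIM, so that the lowest simvastatin sum fell below the highest control. In bulk samples such as these, fewer cells of a type and less RNA per cell cannot be told apart.

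Markers of other cells differed between libraries, and some of these lists separated the groups. The 6 erythroid markers summed to 43.8 to 115 CPM in ConA and 229 to 343 CPM in ConA+SIM, with 5 of 5 tested above 0 on the log2 scale; the globin gene Hbb-bs rose, and Alas2 was at 0 in ConA replicate 3. The Hbb-bs call (2.07, edgeR adjusted p = 0.0485) ended without any 1 library (1.78 to 2.24, adjusted p from 0.12 to 0.245), with RLE scaling (adjusted p = 0.0541), with length offsets (1.44, adjusted p = 0.515) and with cytosolic ribosomal protein genes left out (adjusted p = 0.146). Of all tested genes, 0.561% were called higher with RLE scaling, 0.0274% without ConA+SIM replicate 3 and 0% in the rest of these settings. The 6 neutrophil markers summed to 294 to 485 CPM and 583 to 940 CPM, with 3 of 6 above 0, and Retnlg, Cxcr2 and Mpo each at 0 in some library. Most of that sum came from S100a8 (1.41 ± 0.30) and S100a9 (1.2 ± 0.29), neither of which passed. Cxcr2 stood at 0.57 ± 2.92, whereas Csf3r (-0.62 ± 0.54), Retnlg (-0.45 ± 2.07) and Mpo (-2.72 ± 2.6) were below 0. NK cell markers summed to 141 to 216 CPM in ConA and 108 to 382 CPM in ConA+SIM, with 3 of 4 tested above 0, and overlapped. The summed macrophage markers, at 949 to 2200 CPM in ConA and 245 to 1210 CPM in ConA+SIM, overlapped between groups. Most of that sum came from Lyz2 (565 to 1600 CPM in ConA and 173 to 885 CPM in ConA+SIM, -0.57 ± 0.59). Of the 9 tested, 1 was above 0, the median log2 fold change was -1.09, and 0 passed. All ConA+SIM values lay below all ConA values in 2 of the 9, Cd68 (-2.18 ± 1.4) and C1qa (-1.3 ± 0.66). The reverse held in 0.

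ConA replicate 2, where 15 members had at most 10 counts, also carried the highest levels of endothelial and B cell markers. Sinusoidal endothelial markers summed to 238, 1780 and 571 CPM in ConA and 293, 584 and 519 CPM in ConA+SIM, with 0 of 8 tested above 0 and a median log2 fold change of -0.94, Stab2 and Cdh5 being at 0 in some library. B and plasma cell markers summed to 114, 1290 and 245 CPM in ConA and 535, 585 and 972 CPM in ConA+SIM, with 5 of 7 above 0, and Pax5 and Mzb1 at 0 in some library. The CD4 T cell markers of ConA replicate 2 summed to 2240 CPM, the lowest of the 6 libraries. Hepatocyte markers summed to 87.9 to 192 CPM in ConA and 148 to 226 CPM in ConA+SIM, with 5 of 6 tested above 0. The part of any of these cells in the family's values was not tested.

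Per kilobase of transcript, Mrpl33 was the most abundant member, at 305 CPM per kb averaged over the 6 libraries. Mrpl54 followed at 122 and Mrpl30 at 115 CPM per kb, against a median level of 20.2 CPM per kb over the tested members. The order differed by group: in ConA, Mrpl33 (141 CPM per kb) and Mrpl54 (135) were close and Mrps21 (110) came next, whereas in ConA+SIM Mrpl33 stood at 469 and Mrpl30 (136) and Mrps18c (135) came before Mrpl54 (108). Mrpl54 is mitochondria-specific in the large subunit, and its log2 fold change was -0.32 ± 0.43, so a high level did not go with a high fold change in this gene. The lowest were Mrps10 at 0, Mrps23 at 0.00984 and Mrps18b at 1.19 CPM per kb.

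The lowest levels belong to symbols that the table splits over several rows. The plain row of Mrps10 had 0 counts in all 6 libraries, whereas a suffixed row of the same symbol held 359, 4 and 0 counts in ConA and 0, 423 and 2 in ConA+SIM. Mrpl22 held 136 counts in ConA replicate 3, 28 in ConA+SIM replicate 3 and 0 elsewhere. Mrps23 held 2 counts in ConA replicate 3 and 0 elsewhere, and these 3 genes were not tested. There were 8 suffixed rows for 6 of the genes, and adding them to the plain rows left Mrpl33 as the only call. RefSeq also lists pseudogenes named after Mrpl23, Mrpl27, Mrpl48 and Mrps36, so the levels of these 4 and of the split genes are uncertain.

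Short transcripts had higher fold changes across the whole table. The part of length in the family's fold changes was not tested. The median transcript length was 1316 nt for the 75 tested members and 2988 nt for all tested genes, and Mrpl33, at 478 nt, was the second shortest of the members. Across all tested genes with a length (n = 10460) length and log2 fold change correlated at a Spearman rho of -0.23 and a Pearson r of -0.19. Across the 75 members the values were 0.016 and -0.0078. Each length is that of 1 GENCODE transcript. For Mrpl32, Mrpl51, Mrps17 and Mrps26 it exceeds the RefSeq span of the gene, so member values that rest on length are uncertain. Genes share the 6 libraries and are not independent replicates, so these are descriptions.

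Below 800 nt, 15 members had a median log2 fold change of 0.44 and 339 tested genes one of 0.66. From 800 nt on, the other 60 members had a median of 0.32. Below 1500 nt, 44 members had a median of 0.36 and 1620 tested genes one of 0.38. With each library's trend with transcript length removed, the median of the members was 0.16 with 44 of 75 above 0. With length and GC content removed it was -0.023 with 37 of 75 above 0, and the median of all tested genes was -0.01. Mrpl32 (1.25) and Mrpl33 (0.79) stayed above 0 under that setting.

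**Figure D4:**
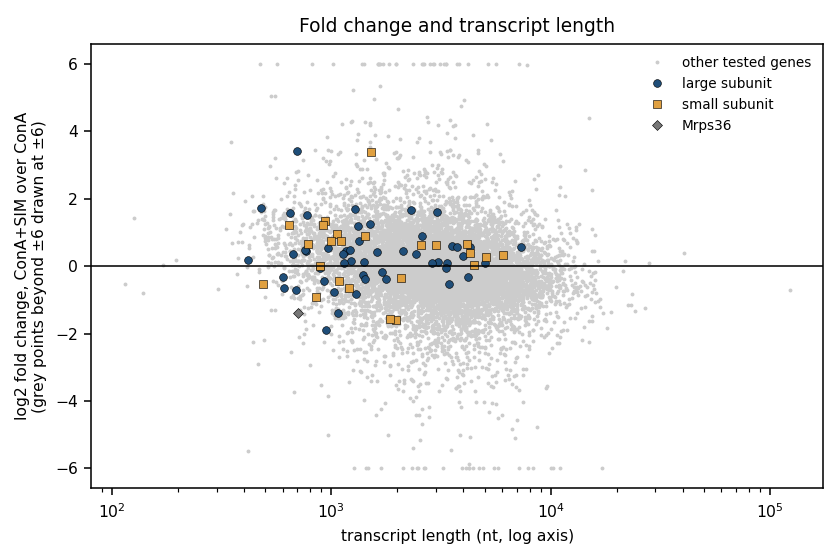
Log2 fold change of ConA+SIM over ConA against transcript length (nt, log axis) for all tested genes with a length (grey) and for large-subunit (circles) and small-subunit (squares) genes and Mrps36 (diamond). The members lie mostly to the left, with a median length of 1316 nt against 2988 nt over all tested genes.

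Genes that work with the mitoribosome were read from the same fit, which called 0.542% of all tested genes higher and 0% lower. The 5 tested mitoribosomal proteins without an Mrp symbol (Dap3, Ptcd3, Chchd1, Aurkaip1 and Gadd45gip1) all had log2 fold changes above 0, with a median of 0.53, and 0 passed. Ptcd3, a pentatricopeptide repeat protein of the small subunit, had the smallest p: it stood at 79.0, 46.0 and 40.2 CPM in ConA and at 110, 118 and 114 CPM in ConA+SIM (1.05 ± 0.38, edgeR adjusted p = 0.412). Its groups did not overlap, and the simvastatin libraries were nearly level.

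Mitochondrial translation factors, which start, extend and end the chains, had a median log2 fold change of -0.17 over 18 tested genes, with 8 above 0 and 0 called. The elongation factor gene Tufm had the smallest p, at 84.9, 21.0 and 71.9 CPM in ConA and 34.7, 1.63 and 38.9 CPM in ConA+SIM (-1.24 ± 0.99, edgeR adjusted p = 0.954). Its groups overlapped. The mitochondrial tRNA synthetases and amidotransferase had a median of 0.063 over 19 tested genes, with 10 above 0 and 0 called.

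Assembly and ribosomal RNA modification genes had a median of -0.29 over 28 tested genes, 13 above 0 and 0 called. The smallest p was that of Rpusd3, for a pseudouridine synthase-like protein, at 7.47, 11.8 and 4.92 CPM in ConA and 0 in all 3 ConA+SIM libraries (edgeR adjusted p = 0.393). Genes of mitochondrial transcription and DNA maintenance had a median of 0.34 over 10 tested genes, 8 above 0 and 0 called, and Tfb2m, a mitochondrial transcription factor gene, had the smallest p (0.91 ± 0.92). Nuclear regulators of mitochondrial genes, among them Nrf1 and Gabpa, had a median of 0.14 over 9 tested genes, 7 above 0 and 0 called. Yy1 had the smallest p of these, at 147, 143 and 188 CPM in ConA and 208, 309 and 176 CPM in ConA+SIM (0.53 ± 0.29, edgeR adjusted p = 0.709).

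The cytosolic ribosomal protein genes, whose products form the ribosome outside mitochondria, had more calls. Of 81 tested, 37 rose and 0 fell (0.542% and 0% of all tested genes), with a median log2 fold change of 0.97 and 75 above 0. The mitochondrial family had 1 of 75 called and a median of 0.35. The cytosolic genes have a median transcript length of 860 nt and smaller standard errors, as given above, and the difference between the families was not tested. The count was 0 with length offsets (median 0.37), with length and GC offsets (median 0.35) and with the replicate block. It was also 0 without any 1 library other than ConA+SIM replicate 3, where 2 were called (median 0.90 to 1.07 without 1 library). Of all tested genes, 0% were called higher in these settings, apart from 0.0274% without ConA+SIM replicate 3.

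**Figure D5:**
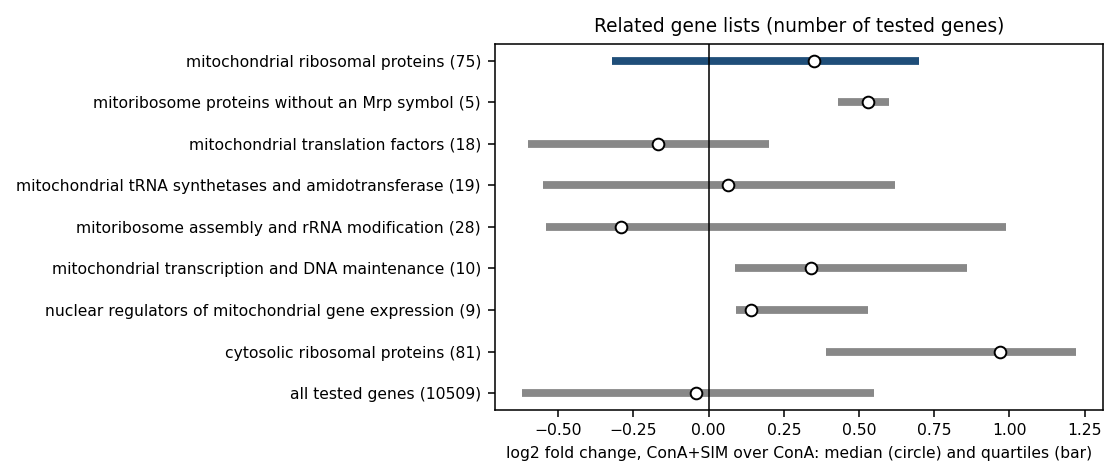
Median (circle) and quartiles (bar) of the log2 fold change of ConA+SIM over ConA for the mitochondrial ribosomal protein genes, for related lists and for all tested genes, with the number of tested genes in brackets. The family sits at 0.35, between all tested genes (-0.041) and the cytosolic ribosomal proteins (0.97), and the assembly genes have the lowest median (-0.29). With length and GC offsets, not drawn, the medians were -0.023 for the family, -0.01 for all tested genes and 0.35 for the cytosolic genes.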

How the data were processed

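RNA of sorted CD4+ T cells was sequenced in 6 libraries, 3 per group, with standard Illumina reagents, per the labels' protocols. HISAT2 2.1.0 and GRCm38 were used, per the submitters' processing notes. Which counter, annotation release and strand setting were used, and how multiply matching reads were treated, was not given in the sources used here. Raw counts per gene, not normalized, were deposited by the authors. From these, genes were kept with filterByExpr, scaled by TMM and tested with edgeR 4.0.16 (robust quasi-likelihood F test, no covariates, R 4.3.3), with Benjamini-Hochberg adjustment over 10509 genes and a threshold of 0.05. The SE is the log2 fold change over the square root of F.

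Alternatives were RLE scaling, no filter, at least 5 CPM in 3 libraries, DESeq2 1.42.0, limma 3.58.1 voom with and without quality weights, the replicate number as a block, each library left out, loess offsets (span 0.3) for length or length and GC (GENCODE M21, 1 transcript per gene), and cytosolic ribosomal protein genes left out. Summing suffixed rows was added after seeing the data. The procedure was tested on simulated data.

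The members, lists and structural classes were chosen with earlier results of these data known. Members named are those past the threshold, the 10 smallest p-values, the 5 highest and 5 lowest fold changes, the 3 highest and 3 lowest levels per length, and 16 fixed symbols; from each related list, the gene with the smallest p. Some genes that this rule names are left out of the text. Other genes given with values were chosen after their values were seen. Gene coordinates and promoters are from RefSeq. No pair of libraries of a group agreed within sampling noise (chi-square 142 to 298 times its degrees of freedom).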

Additional observations from a re-analysis of the deposited data

How the results depend on the processing

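The number of members called higher, 1, was the same with RLE scaling, no filter, the 5 CPM filter, voom with and without quality weights and summed suffixed rows. It was 2 with DESeq2, and 0 with length offsets, with length and GC offsets, with cytosolic ribosomal protein genes left out and without any 1 library. Where the count was 1, 0.522% to 1.05% of all tested genes were called higher, and 3.35% with DESeq2. Where it was 0, so was the share of all tested genes, apart from 0.0274% without ConA+SIM replicate 3. The count called lower was 0 in every alternative run, against 0% to 1.86% of all tested genes. The median log2 fold change of 0.35 ran from 0.16 to 0.53 without 1 library (0.39, 0.19 and 0.47 without ConA replicates 1 to 3; 0.16, 0.53 and 0.20 without ConA+SIM replicates 1 to 3), and was -0.023 with length and GC offsets. For Mrpl33 the value without 1 library was 1.55 to 1.86. Of the 75 genes, 40 kept their direction in all 17 alternatives (26 higher, 14 lower), and 45 did so in the 6 that leave out a library (29 higher, 16 lower).

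With the replicate number as a block, 0 members and 0% of all tested genes were called. The median of the members was then 0.21 and Mrpl33 stood at 1.74 (edgeR adjusted p = 0.31), Mrps12 at -1.05 and Mrps18a at 0.31. Same-numbered libraries correlated in their deviations at 0.0111, 0.00878 and 0.0328, and differently numbered ones at -0.0383 to 0.0181. The labels link no samples across groups, and whether same-numbered samples shared a batch was not tested.

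In some named members the sign changed. Mrpl30, at 0.54 ± 0.30 as given above, turned only with length and GC offsets (-0.039). Mrps12 was -0.026 with RLE scaling, -0.025 with DESeq2, -1.25 with voom, -0.56 with length offsets, -0.36 with length and GC offsets and -0.00052 with cytosolic ribosomal protein genes left out. Mrps18a was 0.23 with voom and 1.62 with quality weights, and Mrps30 was 0.086 with length offsets. Without 1 library, Mrpl11 ran from -0.50 to 2.59, Mrpl44 from -0.87 to 0.28, Mrpl45 from -0.12 to 0.67, Mrps12 from -1.41 to 1.23, Mrps18a from -0.70 to 0.93, Mrps18b from -4.59 to 1.17 and Mrps30 from -0.28 to 0.26. The cause was not tested. Where a fit leaves out a library, the spread is pooled over the other 5. The common biological coefficient of variation was 1.12.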
